A study of Drosophila melanogaster with 60 samples.

Results

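The change in transcript level over the first 24 h of metamorphosis was examined in somatic tissues of Drosophila melanogaster. The animals were *tud* progeny, the offspring of mothers homozygous for the maternal-effect mutation *tudor* (*tud*), which develop without a germline. Prepupae of 0 h and pupae of 24 h were compared in both sexes (h APF, hours after puparium formation). There were 3 arrays for each sex at each hour, so this comparison used 12 of the 60 arrays of the series. Wild type (Canton S) animals of both sexes at 0 and 24 h, on 12 further arrays, were set beside it. Arrays of *tud* progeny at 48, 72 and 96 h gave later levels. The 4724 probes compared were those with at least 2 values in each of the 4 groups, out of 12342 probes with a value on at least 1 array of the series. The mothers were *tud1 bw1 sp1* and the fathers carried *y*, *w* and a ubiquitously expressed GFP transgene on the X chromosome. Since a father gives this chromosome to daughters only, female progeny were told from males by fluorescence. All *tud* progeny, of both hours and both sexes, shared this parentage. They were taken as white prepupae and frozen at once or aged, and whole bodies of several pupae were pooled for each RNA sample. Each array compared a sample with 1 common reference made from wild type (Canton S) pupae of both sexes and all stages, so each value is a log2 ratio of sample to reference and tells nothing of one gene's level against that of another.

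Metamorphosis begins when a pulse of the steroid hormone ecdysone ends larval life. The larval skin hardens and darkens into the puparium, larval tissues such as the gut, salivary glands and much of the musculature are broken down, and the adult body is built from imaginal cells. Ecdysone acts through a cascade in which early genes, several of them transcription factors, control later genes in each tissue. The white prepupa of 0 h stands at the start of this sequence, and by 24 h the animal is a pupa with its head and appendages everted, in which adult structures are growing.

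The 4 groups were first checked against their labels. The RNA of RNA on the X 1 (*roX1*, probe DAC007K18), a non-coding RNA made in males, had log2 ratios from 1.01 to 2.01 with a median of 1.53 on the 6 male arrays and from -5.93 to -3.10 with a median of -4.30 on the 6 female arrays. The mean difference of 5.91 had a two-sided exact permutation p of 0.00216, the smallest that 924 splits of the arrays allow. The labels and the published methods name opposite dyes for the sample, and a positive value was therefore read as more RNA in the sample. Of the 12 male germline markers measured at 0 h, 11 were lower on all *tud* male arrays than on all wild type male arrays, with a median difference of 3.54 on the log2 scale. At 24 h this held for 10 of 11, with a median difference of 4.61. The names of these markers came from gene lists of the study, so their direction is not independent evidence. Arrays held between 3954 and 8134 values, with the fewest on *tud* male 0 h replicate 1. Pairs of arrays of 1 sex and hour correlated across probes with r from 0.916 to 0.959, pairs of the same hour and different sex with r from 0.901 to 0.950, and pairs of different hours with r from 0.647 to 0.704.

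Most of the transcripts measured differed between the hours. With sex as a covariate, 2600 of 4724 probes (55.0%) changed from 0 to 24 h at an adjusted p under 0.05 (limma, Benjamini-Hochberg over all probes tested), of which 1621 rose (34.3%) and 979 fell (20.7%). The median change over all probes tested was 0.17. Values at 24 h were higher in general, with array medians over these probes from -0.03 to 0.15 at 0 h and from 0.15 to 0.26 at 24 h. With each array centred on its median, 2452 probes changed, 1216 upward and 1236 downward, so the share that rose moved from 62.3% to 49.6%, and 2195 probes were called both ways. A small rise is therefore to be read against a general shift of 0.17. In whole animals, fewer cells of a type and less RNA per cell cannot be told apart, and a change is a change in the share of the RNA of the whole body.

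Large changes went in both directions. Of the probes called, 430 fell and 501 rose by at least 2-fold (9.10% and 10.6% of the probes tested, together 19.7%), 132 fell and 91 rose by at least 4-fold, and 35 fell and 18 rose by at least 16-fold. Among the 2186 probes with a value on all 12 arrays, the 0 h and the 24 h values did not overlap for 1000 (45.7%). Gene names were known for 1851 of the probes tested, through gene lists that the study published. Of these, 947 carried a name because the study had put them in a cluster of co-regulated genes on the *tud* arrays, and 562 of them fell (59.3%) while 112 rose (11.8%). Of the 904 probes named through other lists only, 107 fell (11.8%) and 329 rose (36.4%). The 2873 probes without a name held 310 that fell (10.8%) and 1180 that rose (41.1%). Genes that rose are therefore mostly without a name here, and the direction of a gene named through a cluster is not independent of these arrays.

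Named genes were ranked among those with a value on every *tud* array of both hours and no overlap between the hours. The 10 of these that fell most were *pale*, *ebony*, *Eig71Eb*, *Jonah 25Biii*, *gammaTrypsin*, *PGRP-SB2*, CG7924, CG7778, CG32762 and CG4151. Named genes with missing values were left out of this ranking, and some, such as *Eig71Ec* and *Jonah 65Aiv*, fell further than several of the 10. CG7924 (probe DAC037I16) had log2 ratios from 3.48 to 4.07 with a median of 3.75 at 0 h and from -6.94 to -5.34 with a median of -6.09 at 24 h. It fell by 9.83 ± 0.23 on the log2 scale (SE, 6 arrays at each hour, adjusted p = 7.5e-12, limma). CG7778 (probe DAC020K09) went from a median of 4.82 at 0 h (4.56 to 5.09) to -2.20 at 24 h (-2.70 to -1.66) and fell by 6.99 ± 0.17. Both were above the reference on every 0 h array and below it on every 24 h array. CG32762 (probe DAC016D06) fell by 6.87 ± 0.28 and CG4151 (probe DAC038A14) fell by 5.94 ± 0.24, again with no overlap between the hours. Elements were kept where the signal was above background in at least 1 channel, so a very low ratio can stand for a sample signal at background. The size of a change that ends or starts at such a ratio is for this reason less certain than its direction.

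**Figure D1:**
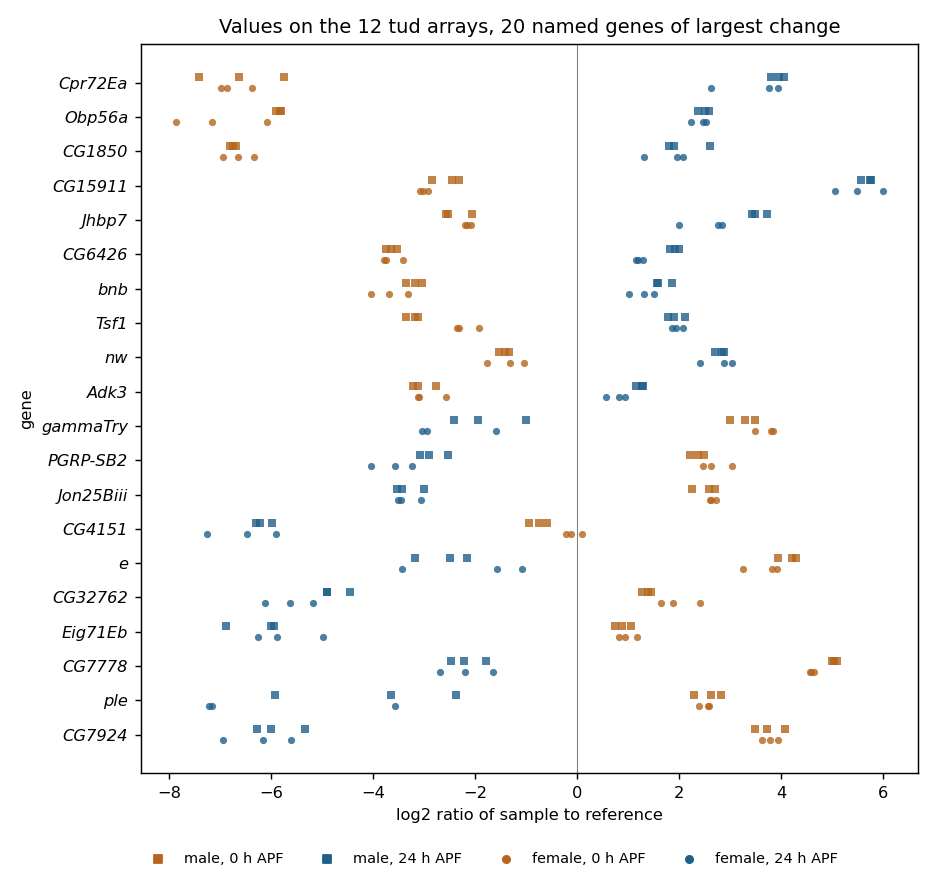
Log2 ratio of sample to reference (x axis) on each of the 12 *tud* arrays for the 10 named genes that rose most and the 10 that fell most (y axis, current symbols), among probes with all 12 values and no overlap between the hours. Squares are males and circles females, brown is 0 h and blue 24 h APF. For *Cpr72Ea* the 0 h values lie between -7.42 and -5.75 and the 24 h values between 2.62 and 4.04, and for CG7924 they lie in the opposite order, between 3.48 and 4.07 and between -6.94 and -5.34.

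Of 10 pigment and sclerotization genes tested, which act in the hardening and darkening of cuticle, 8 fell (80%) and none rose, against 20.7% and 34.3% of all probes. *pale* (probe DAC011L20) encodes tyrosine hydroxylase, which starts the synthesis of dopamine from tyrosine. Its log2 ratio lay between 2.28 and 2.81 with a median of 2.57 at 0 h and between -7.23 and -2.38 with a median of -4.78 at 24 h and fell by 7.53 ± 0.71 (adjusted p = 2.1e-06, limma). The 24 h values of *pale* were spread much more widely than its 0 h values. *Dopa decarboxylase* (probe DAC005E01), the enzyme that makes dopamine, went from a median of 1.76 at 0 h (1.49 to 2.12) to -3.15 on the 5 arrays of 24 h with a value and fell by 4.81 ± 0.36. *ebony* (probe DAC040A24), which joins dopamine to beta-alanine to give a tanning precursor, went from 3.93 (3.26 to 4.28) to -2.33 (-3.44 to -1.09) and fell by 6.23 ± 0.37. *yellow-c* (probe DAC038C16), of the yellow family of cuticle colour genes, went from 3.44 (3.17 to 3.70) to -1.34 (-1.46 to -1.21) and fell by 4.78 ± 0.10. In these 4 genes the hours did not overlap. Over the 10 tested of the 11 listed, the median change was -1.24 against 0.17 over all probes, and the 2 that were not called include the smallest change of the list, -0.06. All 5 that were named through clusters fell, a class in which 59.3% of all probes fell. The 5 of them that were named through lists other than the clusters include *pale* and *Dopa decarboxylase*. Of these, 3 of the 5 fell (60%), against 11.8% of all probes named that way.

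In later hours these genes did not move as one. The median log2 ratio of *pale* was -5.74 at 48 h, -3.39 at 72 h and 1.09 at 96 h, and that of *Dopa decarboxylase* was -3.22, 0.13 and 1.45. *ebony* was at -2.36, 1.38 and 0.06 and *yellow-c* at -1.01, -0.02 and 0.93. Levels at 48 to 96 h are medians of 5 or 6 arrays and were not tested here.

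**Figure D2:**
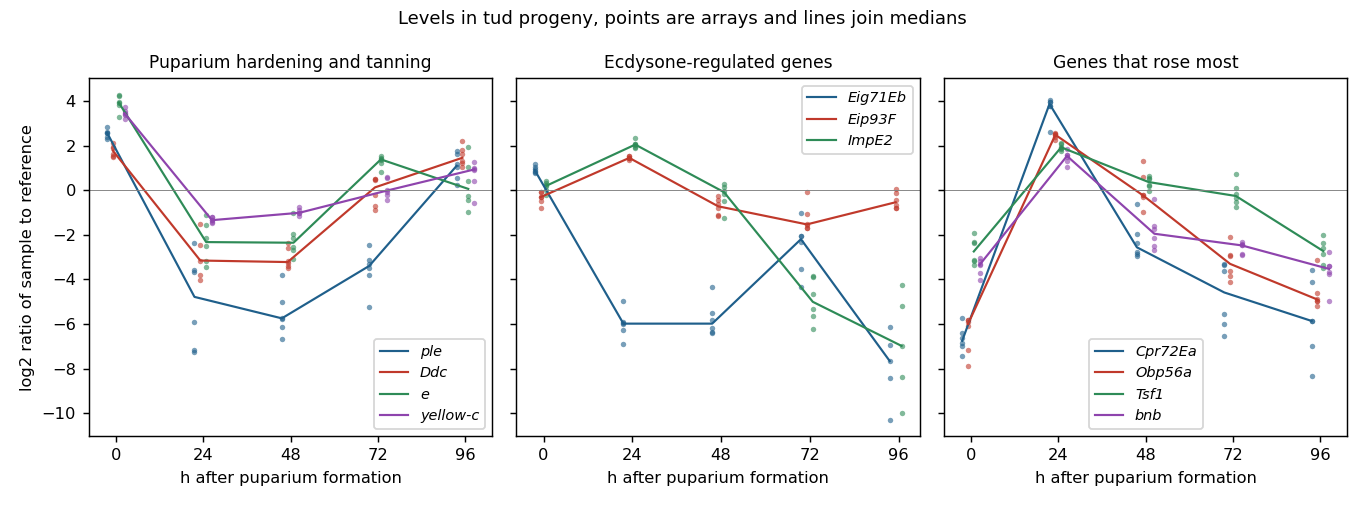
Log2 ratio of sample to reference (y axis) in *tud* progeny against h APF (x axis) for 4 genes of puparium tanning, 3 ecdysone-regulated genes and 4 of the genes that rose most. Points are single arrays of either sex, shifted slightly sideways by gene, and lines join the medians. *pale* falls from a median of 2.57 at 0 h to -4.78 at 24 h and is at 1.09 at 96 h, while *Cpr72Ea* rises from -6.75 to 3.86 and is at -2.56 at 48 h.

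Of 21 ecdysone-regulated probes tested 14 fell and 5 rose. The *Eig71E* (Ecdysone-induced gene) family encodes small secreted peptides of the prepupal salivary gland, and all 6 members with a named probe here fell. *Eig71Ec* (probe DAC031M10) was between 0.85 and 1.36 with a median of 1.08 at 0 h and between -7.85 and -6.40 with a median of -7.53 on the 4 arrays of 24 h with a value and fell by 8.42 ± 0.24 (adjusted p = 9.8e-10, limma). *Eig71Eb* (probe DAC015H19) fell by 6.93 ± 0.23, from a median of 0.90 to -5.98, and *Eig71Eg* (probe DAC015F17) fell by 5.98 ± 0.26, from -0.10 to -6.25. The other 3 named members fell less, *Eig71Ed* by 3.63 ± 0.50, *Eig71Ee* by 3.07 ± 0.28 and *Eig71Ef* by 2.26 ± 0.28. The hours did not overlap for any of the 6. Members of this family resemble each other in sequence, and how far a probe reads its neighbours was not examined.

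*broad*, which encodes zinc finger transcription factors of the early ecdysone response, is represented by 4 named probes. At 0 h their medians were 2.87, 2.20, 0.84 and 1.14 and at 24 h -0.28, -0.77, -0.98 and -0.43 (probes DAC033N23, DAC033P03, DAC033P01 and DAC021G22). All 4 fell, by 3.05 ± 0.14, 2.97 ± 0.16, 1.87 ± 0.23 and 1.79 ± 0.17, without overlap between the hours. The probes thus gave the same direction and differed in size, and their medians at 48 to 96 h, on 2 to 6 arrays each, lay between -3.47 and -0.67.

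Of the ecdysone-regulated probes 5 rose (23.8%, against 34.3% of all probes). All 5 were among the 9 named through no cluster, of which 55.6% rose, against 36.4% of all probes named that way. *Eip93F* (probe DAC010E04), a transcription factor of the later ecdysone response, was between -0.80 and -0.07 with a median of -0.31 at 0 h and between 1.35 and 1.55 with a median of 1.45 at 24 h, a rise of 1.81 ± 0.12 (adjusted p = 1.1e-07, limma). *Ecdysone-inducible gene E2* (*ImpE2*, probe DAC015P14), which is known from imaginal discs, rose by 1.90 ± 0.12, from a median of 0.20 (-0.20 to 0.42) to 2.04 (1.91 to 2.36). *Ecdysone-inducible gene L2* (*ImpL2*, probe DAC024I22), which encodes a secreted protein that binds insulin-like peptides, rose by 0.98 ± 0.12. Another tested probe of *ImpL2*, DAC024I20, was not among the 4 called members of the list that rose most. *Ecdysone-dependent gene 78E* (probe DAC020C05), a gene of the pupal cuticle, rose by 1.10 ± 0.24, from a median of -7.16 to -5.98, with overlap between the hours. Its call was lost in the fit of all 60 arrays, with an adjusted p of 0.142 (limma). Over the whole list of 18 ecdysone-regulated genes, 21 of 23 probes were tested, 14 fell (66.7%, against 20.7% of all probes) and 5 rose, with a median change of -1.69. All 12 probes named through the clusters fell, a class in which 59.3% of all probes fell. Of the 9 named otherwise 5 rose and 2 fell (22.2%, against 11.8% of all probes named that way). Centring the arrays left 15 that fell and 5 that rose. In wild type 6 of the 16 probes tested fell and 3 rose, with a median change of -0.57. There, 17.7% of all probes fell and 13.5% rose.

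Digestive enzymes of the larval gut fell. All 11 of the 13 listed that could be tested fell, against 20.7% of all probes, with a median change of -4.20. They are the Jonah proteases and trypsins, which cut food proteins, lysozymes and 1 beta-galactosidase. *Jonah 65Aiv* (probe DAC019P09) had log2 ratios from 3.72 to 4.16 with a median of 3.91 at 0 h and from -3.86 to -1.23 with a median of -2.93 on 5 arrays at 24 h. It fell by 6.58 ± 0.35 (adjusted p = 3.6e-08, limma). *Jonah 25Biii* (probe DAC035H14) fell by 5.91 ± 0.13, from 2.60 to -3.45, *gammaTrypsin* (probe DAC020B03) by 5.64 ± 0.32, from 3.48 to -2.19, and *Jonah 65Aiii* (probe DAC029I18) fell by 4.88 ± 0.24, from 3.47 to -1.30. For these 4 genes every array of 0 h was above the reference and every array of 24 h below it. The clusters gave all 11 their names, a class in which 59.3% of probes fell. In wild type, on other arrays, all 8 that could be tested fell too. This is against 17.7% of all probes there and 69.1% of the probes that fell in *tud* progeny. The Jonah and trypsin genes are families of close copies, and cross-hybridization between them was not examined.

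Genes of the larval fat body fell less. Larval serum proteins are storage proteins that this tissue makes before metamorphosis, and of the 5 fat body genes tested 4 fell (80%), with a median change of -0.97. All 5 were named through clusters, a class in which 59.3% fell. *Fat body protein 2* (probe DAC027G15) went from a median of 1.36 (1.28 to 1.53) to -0.64 (-1.12 to -0.32) and fell by 2.05 ± 0.14 (adjusted p = 1.4e-07, limma). *Larval serum protein 1 alpha* (probe DAC021A11) was at -0.03 to 0.18 in males and 1.15 to 1.52 in females at 0 h and at -1.55 to -0.56 in males and -0.82 to 0.15 in females at 24 h, and fell by 1.37 ± 0.20. Its hours overlapped between the sexes and not within either sex. *Larval serum protein 1 gamma* fell by 0.97 ± 0.17 and *Fat body protein 1*, the receptor that takes these proteins up again, by 0.96 ± 0.13. *Larval serum protein 1 beta* (probe DAC038C12) had medians of -0.29 at 0 h and -0.42 at 24 h, a change of -0.13 ± 0.17 that did not pass the test.

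The proteasome, the particle that degrades proteins tagged with ubiquitin, fell as a group. All 28 probes of its subunits and of the assembly factor Pomp were tested and all 28 fell, by 0.45 to 1.95 with a median change of -1.03. *Tat-binding protein-1* (*Rpt5*, probe DAC025D01), an ATPase of the regulatory particle, went from a median of 1.79 (1.39 to 2.04) to -0.12 on 4 arrays (-0.72 to 0.23) and fell by 1.95 ± 0.18 (adjusted p = 7.0e-06, limma). *Mov34* (*Rpn8*, probe DAC040E24), a subunit of the lid, went from 0.90 to -0.54 and fell by 1.65 ± 0.21. *Proteasome p44.5 subunit* (*Rpn6*, probe DAC025C17), another lid subunit, went from 1.57 (1.44 to 1.71) to 0.08 (-0.26 to 0.11) and fell by 1.56 ± 0.09, and *Rpt4* (probe DAC027A06) went from 1.59 to 0.17 and fell by 1.36 ± 0.15. All 0 h values of these 4 subunits were above the reference, and *Mov34* had 24 h values from -2.12 to -0.25. The 28 remained called with the arrays centred and without any single array. All were named through clusters chosen on these arrays, a class in which 59.3% of probes fell. In wild type all 28 fell as well, against 69.1% of the probes that fell in *tud* progeny, with a median change of -1.01.

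Enzymes that attach and remove ubiquitin changed in part. Of 22 probes tested, 11 fell (50%) and none rose, with a median change of -0.31. Those with the largest falls were *Ubiquitin-specific protease 36* (by 1.15 ± 0.14), *Ubiquitin conjugating enzyme 10* (by 1.12 ± 0.11), the ligase subunit *cullin-5* (by 0.98 ± 0.10) and *Ubiquitin-5E* (by 0.93 ± 0.10), a gene of ubiquitin itself. The 11 that fell were all among the 17 named through clusters (64.7%), which is near the 59.3% of all cluster-named probes that fell, and none of the 5 named otherwise passed the test.

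By contrast, no cytosolic ribosomal protein was called, against 55.0% of all probes tested. The 10 tested had changes from -0.24 to 0.01 with a median of -0.09, and 4 of them fell once arrays were centred, when the median became -0.25. Of the 10, 8 had been named through clusters as well.

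**Figure D3:**
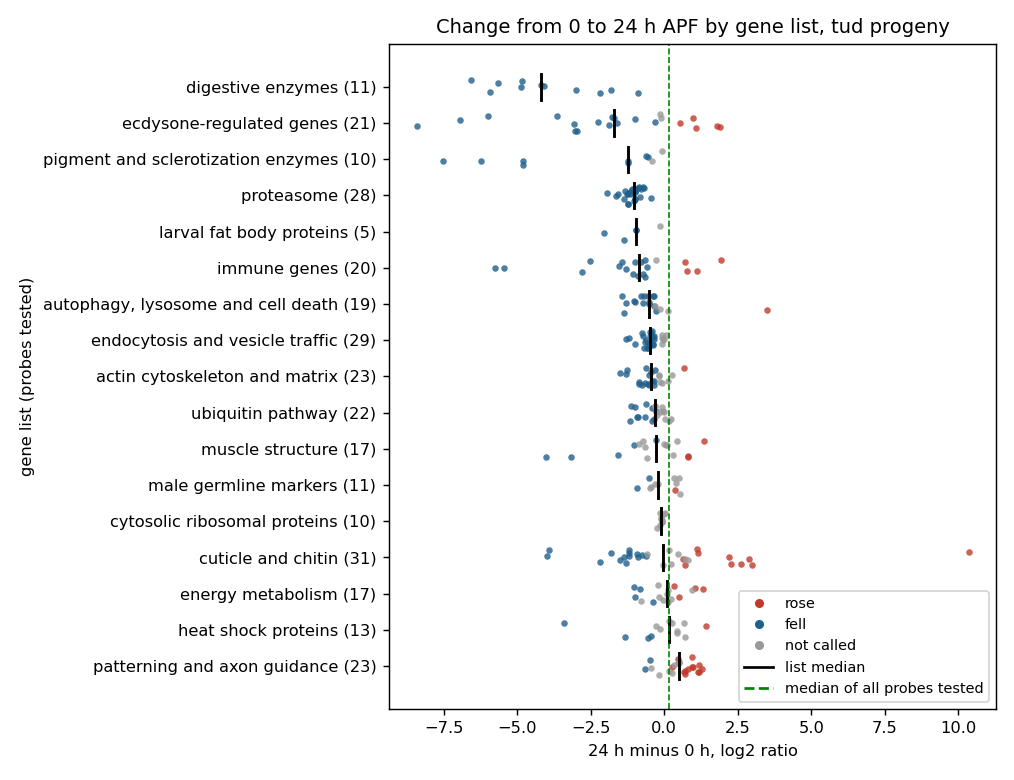
Change from 0 to 24 h (x axis, 24 h minus 0 h, log2) of every probe tested in 17 gene lists (y axis, with the number of probes tested), in *tud* progeny. Red points rose, blue points fell and grey points were not called at an adjusted p of 0.05, black bars are list medians and the dashed line is the median of all probes tested, 0.17. The 28 proteasome probes lie between -1.95 and -0.45, the 10 ribosomal protein probes between -0.24 and 0.01.

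Genes of autophagy, lysosomes and cell death were mostly higher at 0 h. Of 19 probes tested, 15 fell (78.9%) and 1 rose, with a median change of -0.53. Of the 18 named through clusters 83.3% fell, against 59.3% of all such probes. Over the whole list 9 fell, among fewer probes tested, when all 3 values in each group were required. *Saposin-related* (probe DAC030J18), a lysosomal protein of lipid breakdown, fell by 1.44 ± 0.10, from a median of 1.56 to 0.07. *Autophagy-specific gene 2* (probe DAC004F22) fell by 1.38 ± 0.12, from 1.10 to -0.20, and the protease *Cysteine proteinase-1* (probe DAC018G20) by 1.02 ± 0.11, from 0.86 to -0.06. These 3 were above the reference on every 0 h array. *grim* (probe DAC030G14), an activator of apoptosis, was between -0.09 and 0.61 at 0 h and between -1.38 and -0.60 on 5 arrays at 24 h and fell by 1.30 ± 0.15. The effector caspase *Ice* (*Drice*, probe DAC020K21) fell by 0.53 ± 0.10, from 1.14 to 0.59. The initiator caspase *Nedd2-like caspase* (*Dronc*, probe DAC037O14) was at 0.23 and 0.32, a change of 0.11 ± 0.13 that did not pass the test.

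The receptors with which phagocytes take up dying cells fell only slightly. *draper* (probe DAC010L17) went from a median of 1.09 to 0.67 on 4 arrays at each hour and fell by 0.51 ± 0.17 with an adjusted p of 0.031 (limma), and this call was lost without any of 5 single arrays, *tud* male 0 h replicate 3, male 24 h replicate 3, female 0 h replicate 2, and female 24 h replicates 1 and 3, with adjusted p from 0.0511 to 0.0774. *croquemort* (probe DAC038M06) went from 0.66 to 0.38 and fell by 0.28 ± 0.10 with an adjusted p of 0.030, and lost its call without any of 7 arrays, *tud* male 0 h replicates 2 and 3, male 24 h replicates 1 and 3, female 0 h replicate 3, and female 24 h replicates 1 and 2, with adjusted p from 0.0526 to 0.0719. The one member of the list that rose was *26-29kD-proteinase* (*CtsK1*, probe DAC035N06), a cysteine protease. Its log2 ratio was between -1.86 and -1.53 on 5 arrays at 0 h and between 1.02 and 2.63 with a median of 1.84 on 6 arrays at 24 h, a rise of 3.48 ± 0.18 (adjusted p = 3.2e-08, limma). It was also the only member of this list named through no cluster.

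Endocytosis and vesicle traffic followed the same direction, with 23 of 29 probes that fell (79.3%, against 59.3% of all cluster-named probes) and none that rose, and a median change of -0.47. *Rab-protein 7* (*Rab7*, probe DAC007M01), which directs traffic to late endosomes, fell by 1.30 ± 0.15, from a median of 1.69 to 0.31. *Hepatocyte growth factor regulated tyrosine kinase substrate* (*Hrs*, probe DAC021O11) and *shrub* (probe DAC037O02), both of the machinery that sorts ubiquitinated receptors into endosomes, fell by 1.00 ± 0.13 and 0.76 ± 0.10. In the list of the actin cytoskeleton and the matrix, 16 of 23 fell (69.6%) and 1 rose, with a median of -0.46. *zipper* (non-muscle myosin heavy chain, probe DAC032D11) fell by 1.30 ± 0.19 and *Matrix metalloproteinase 1* (probe DAC026O18), which cuts the extracellular matrix, by 1.28 ± 0.12, from 1.06 to -0.29. Another tested probe of *Matrix metalloproteinase 1*, DAC026O16, was not among the 4 called members of the list that fell most. *singed* (probe DAC016L18), the fascin that bundles actin in growing bristles, rose by 0.66 ± 0.12, from 0.80 (0.67 to 1.22) to 1.62 (1.29 to 1.69). All 29 probes of the first list and 19 of the 23 of the second were named through clusters, and of these 19 the share that fell was 73.7%.

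Of 20 immune probes tested, 15 fell (75%) and 4 rose (20%, against 34.3% of all probes), with a median change of -0.84. Of the 18 named through clusters 77.8% fell, against 59.3% of all such probes, and 16.7% rose, against 11.8%. The drosomycin family, which encodes antifungal peptides, fell in all 5 named members measured. *drosomycin-2* (probe DAC003I04) was between 2.93 and 3.49 with a median of 3.07 at 0 h and between -3.90 and -1.09 with a median of -2.47 on 5 arrays at 24 h and fell by 5.44 ± 0.41 (adjusted p = 5.8e-07, limma). *drosomycin-4* fell by 2.80 ± 0.14, *drosomycin-5* by 2.52 ± 0.13, *Drosomycin* itself by 1.53 ± 0.21 and *Drosomycin-like* by 1.43 ± 0.22. These copies are similar in sequence, so the share of each in the signal of its neighbours is not known. The peptidoglycan recognition protein *PGRP-SB2* (probe DAC040N03) fell by 5.76 ± 0.23, from a median of 2.47 (2.20 to 3.04) to -3.17 (-4.06 to -2.53). In the other direction, the antibacterial peptide gene *Attacin-B* (probe DAC035C24) rose by 1.94 ± 0.25, from a median of -0.65 (-1.12 to -0.02) to 1.72 (0.58 to 2.16) on 5 arrays at each hour. *Immune induced molecule 10* rose by 1.13 ± 0.19, the protease *Melanization Protease 1* by 0.76 ± 0.09 and *PGRP-SC1b* by 0.70 ± 0.15. Of the 4 that rose, 3 were named through clusters that peak at 24 h, and *Melanization Protease 1* was not.

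The gene that rose most of all named genes encodes a cuticle protein. *Cuticular protein 72Ea* (*Cpr72Ea*, probe DAC031J12), a structural protein of the cuticle, was between -7.42 and -5.75 with a median of -6.75 at 0 h and between 2.62 and 4.04 with a median of 3.86 at 24 h, a rise of 10.36 ± 0.28 (adjusted p = 3.5e-11, limma). It was at -2.56 at 48 h, -4.58 at 72 h and -5.86 at 96 h, so its median at 24 h stood above that of every other hour. *Cuticular protein 97Eb* rose by 2.98 ± 0.48, *Cuticular protein 51A* (probe DAC011L12) by 2.87 ± 0.11, from a median of -5.33 to -2.55, and *Cuticular protein 97Ea* by 2.61 ± 0.24. Against these, *Cuticular protein 49Ac* fell by 3.99 ± 0.19 and 3.93 ± 0.20 on its 2 probes, from medians of 2.56 and 2.46 to -1.34 and -1.42. *serpentine* (probe DAC003A14), an enzyme that removes acetyl groups from chitin, fell by 2.17 ± 0.24, and *Cuticular protein 66Cb* by 1.80 ± 0.36. *Cuticular protein 66Cb* was far below the reference at both hours, from -5.46 to -4.68 at 0 h and from -8.18 to -5.93 at 24 h. Of 31 cuticle and chitin probes tested, 14 fell (45.2%) and 10 rose (32.3%, near the 34.3% of all probes), with a median of -0.04. Most of them, 24, were named through no cluster, and 10 of these rose (41.7%) and 8 fell (33.3%), against 36.4% and 11.8% of all probes named that way.

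Other genes that rose most had no shared role in the lists. *Odorant-binding protein 56a* (*Obp56a*, probe DAC035F01), a secreted carrier protein, went from a range of -7.87 to -5.81 at 0 h to a median of 2.48 (2.23 to 2.58), a rise of 8.89 ± 0.28 (adjusted p = 1.1e-10, limma). CG1850 (probe DAC035E10) rose by 8.64 ± 0.18, from a median of -6.73 to 1.92, and CG15911 (probe DAC008N11) by 8.38 ± 0.15, from -2.89 to 5.64. All 6 values of CG15911 at 24 h were at or above 5.06. *Transferrin 1* (*Tsf1*, probe DAC026C03), which carries iron in the haemolymph, rose by 4.66 ± 0.18, from a median of -2.75 (-3.37 to -1.94) to 1.92 (1.77 to 2.11). *bangles and beads* (*bnb*, probe DAC017A07) rose by 4.92 ± 0.13, CG6426 by 5.21 ± 0.13, CG11852 (*Jhbp7*) by 5.31 ± 0.23, CG4844 (*nw*) by 4.19 ± 0.14 and *Ady43A* (*Adk3*) by 3.99 ± 0.15. None of the 10 genes that rose most had an overlap between the hours, as the rule for naming them required. Without a name, probe DAC037F20 rose by 8.27 ± 0.14, from a median of -7.48 to 0.90, and probe DAC013D21 by 7.15 ± 0.17, from -6.47 to 0.69, and they are given because no named gene but those above rose as far.

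At 48 h several of these genes had lower levels than at 24 h, with medians of -0.22 for *Obp56a*, -3.27 for CG1850, -1.07 for CG15911, 0.36 for *Transferrin 1* and -1.95 for *bangles and beads*. Of the 43 probes that rose by at least 4-fold and had all 30 *tud* values of the 5 hours, 21 had their highest mean at 24 h, and the median of the 43 went from -3.08 at 0 h to 0.25 at 24 h and -0.55 at 48 h. Of the 52 that fell as far, 30 were highest at 0 h and 26 were lowest at 24 h, and the median went from 1.17 to -2.29 and reached 0.12 at 96 h. The levels at 0 and 24 h were used to choose the probes and only the later ones are new.

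Patterning and axon guidance was the list with the most members that rose. Of 23 probes tested, 14 rose (60.9%, against 34.3% of all probes) and 2 fell, with a median change of 0.50 against 0.17 over all probes, and with arrays centred 11 rose and 2 fell, with a median of 0.35. When all 3 values in each group were required, 4 rose among fewer tested. In wild type 6 of 17 probes tested rose and 2 fell, against 13.5% and 17.7% of all probes there. The list median in wild type was 0.12, against 0.02 over all probes there. *wishful thinking* (probe DAC012E24), a receptor of bone morphogenetic protein signals at synapses, went from a median of 0.00 (-0.09 to 0.11) to 1.31 (1.02 to 1.53), a rise of 1.27 ± 0.10 (adjusted p = 3.6e-07, limma). The transcription factor *ventral veins lacking* (probe DAC011D20) rose by 1.19 ± 0.12, *fringe* (probe DAC025B24), which modifies the Notch receptor, by 1.19 ± 0.11, and the guidance cue *Netrin-B* (probe DAC025M21) by 1.14 ± 0.16. For these 4 genes the hours did not overlap. Of the 11 members named through clusters chosen on these arrays, 8 rose (72.7%, against 11.8% of all such probes). The 2 that fell were also among these 11 (18.2%, against 59.3%). Of the 12 members named through no cluster, 6 rose (50%, against 36.4% of all such probes) and none fell. *Sema-5c* fell by 0.66 ± 0.16 and *Hairless*, a repressor of Notch target genes, by 0.50 ± 0.11. The signal *decapentaplegic* (probe DAC019N10) had a median of 0.30 on 4 arrays at 0 h and 0.92 on 6 at 24 h, and its change of 0.49 ± 0.34 did not pass the test, whereas without *tud* female 24 h replicate 3, where it was at -0.61, the change was 0.78 with an adjusted p of 0.00115 (limma). *Delta*, a ligand of Notch, changed by -0.17 ± 0.17 and did not pass the test.

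Genes of muscle structure were mostly below the reference, with medians under 0 at both hours for 13 of the 17 probes tested. Of the 17, 5 fell (29.4%, against 20.7% of all probes) and 3 rose (17.6%, against 34.3%), with a median of -0.27, and 16 of them were named through no cluster. *Muscle protein 20* (probe DAC041O09) went from a median of -1.56 (-2.05 to -1.37) to -5.68 (-6.35 to -4.70) and fell by 4.01 ± 0.20 (adjusted p = 7.8e-09, limma). *Muscle LIM protein at 84B* (probe DAC028C07) fell by 3.15 ± 0.14, *upheld*, which encodes troponin T, by 1.57 ± 0.18, and *Tropomyosin 1* (probe DAC016C07) by 1.03 ± 0.09. Their later levels were higher, with medians at 96 h of 1.85, 1.38, -0.13 and 1.12. Another tested probe of *Tropomyosin 1*, DAC016C13, was not among the 4 called members of the list that fell most. *Actin 79B* rose by 0.82 ± 0.24, from a median of -5.58 to -4.61, and *rolling pebbles* (probe DAC039F23), which acts in the fusion of myoblasts, by 0.81 ± 0.17. *Myosin light chain 2* (probe DAC024C15) rose by 1.34 ± 0.48, from a median of -7.16 to -5.09 with overlap between the hours (adjusted p = 0.032, limma), and its call was lost with arrays centred and without any of 9 single arrays, all but *tud* male 0 h replicate 1, male 24 h replicate 3 and female 0 h replicate 3, with adjusted p up to 0.0771. In energy metabolism 4 of 17 rose and 4 fell (23.5% each, below the 34.3% of all probes that rose and near the 20.7% that fell), among them *Arginine kinase* (up by 1.33 ± 0.16) and *Malic enzyme* (up by 1.06 ± 0.13) against *Adenylate kinase-1* (down, at -1.04 ± 0.19). Of the 13 heat shock protein probes, 4 fell (30.8%, against 20.7% of all probes) and 1 rose (7.69%, against 34.3%). Of the 4 named through clusters 75% fell, against 59.3% of all such probes. Of the 9 named otherwise 11.1% fell, near the 11.8% of all probes named that way. The largest of these changes was that of *lethal (2) essential for life* (probe DAC034P16), a small heat shock protein, which fell by 3.40 ± 0.35, from 0.73 to -2.25. The heat shock list went the other way in wild type, where 5 of 11 probes tested rose and 1 fell. There, 13.5% of all probes rose and 17.7% fell.

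Male germline markers were low in *tud* males at both hours. Of the 11 tested over both sexes, 2 fell (18.2%, near the 20.7% of all probes) and 1 rose (9.09%, below 34.3%), with a median change of -0.21. The *tud* male means of the 12 markers lay between -7.57 and -0.51 at 0 h. Those of the 11 measured at 24 h lay between -6.72 and -0.36.

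A number of probes had values at 1 of the hours only. At least 5 of the 6 arrays of 0 h and none of 24 h had a value for 181 probes, and the reverse held for 9. Of the 181 only 3 had a name. CG13535 (probe DAC013J06) was measured on all 6 arrays of 0 h, between 1.84 and 3.42 with a median of 2.14, and on no *tud* array of any later hour. Such probes have no change to test. The filter applied before deposit removed an element that was weak in both channels.

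Whether the change from 0 to 24 h differed between the sexes was tested by the interaction of sex and hour. At an adjusted p under 0.05, 7 of 4724 probes (0.148%) differed (limma), 4 with a more positive change in males (0.0847%) and 3 with a more negative one (0.0635%), and 480 had an unadjusted p under 0.05. *roX1* went from 1.01 to 1.21 at 0 h to 1.85 to 2.01 at 24 h in males and from -3.73 to -3.10 to -5.93 to -4.87 in females, a difference of 2.64 ± 0.35 between the changes (adjusted p = 0.0155, limma). *dusky* (probe DAC024P14), a gene of the apical extracellular matrix, had a male change of 3.33 and a female change of -1.47, with 2 male arrays at each hour, a difference of 4.80 ± 0.49. CG1342 (probe DAC013F18) changed by -2.88 in males and -1.11 in females, a difference of -1.77 ± 0.23. The others were CG2016, *Pherokine 3*, CG12290 and the unnamed probe DAC028B23. None of the 7 was called when *tud* male 0 h replicate 3, male 24 h replicate 3 or female 0 h replicate 1 was left out, and with any single array left out between 0 and 6 probes were called. With the replicate number as a block the count was 1.

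The same change was measured in wild type (Canton S) animals, which have a germline, with 3 arrays for each sex at each hour, on other arrays with the same reference. Of 5265 probes tested there, 1641 changed (31.2%), 710 upward (13.5%) and 931 downward (17.7%). Of the 908 probes that fell in *tud* progeny and could be tested in wild type, 627 fell there (69.1%), 1 rose and 862 had a negative change. Of the 1443 that rose in *tud* progeny, 545 rose there (37.8%), 11 fell and 1244 had a positive change. Median changes were -0.89 in *tud* progeny and -0.85 in wild type for the first set and 0.76 and 0.41 for the second.

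**Figure D4:**
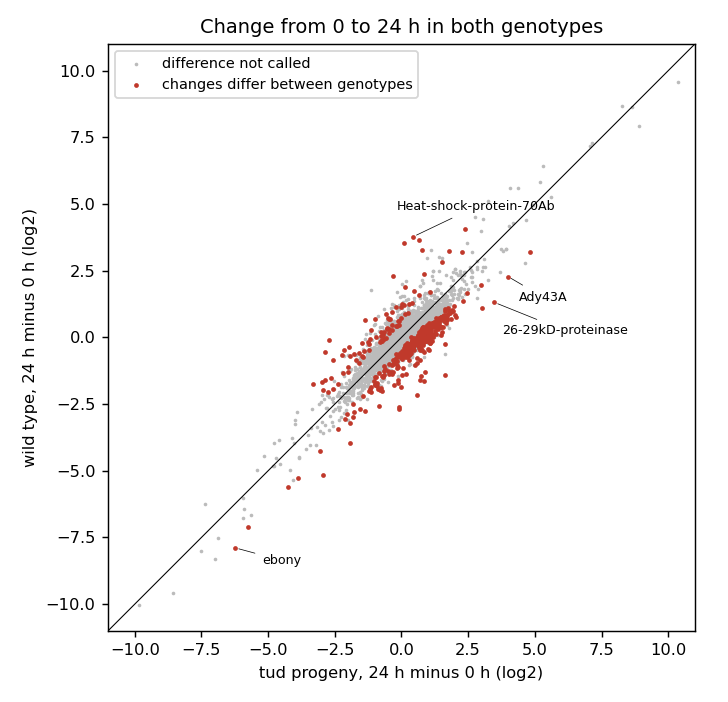
Change from 0 to 24 h in wild type (y axis, log2) against the change in *tud* progeny (x axis, log2) for the 4151 probes measured in all groups of both genotypes. Red points are the 442 probes whose changes differ between the genotypes at an adjusted p of 0.05, grey points are the others and the line marks equal change. *26-29kD-proteinase* lies at 3.48 in *tud* progeny and 1.31 in wild type, *Heat-shock-protein-70Ab* at 0.44 and 3.78.

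The difference between the genotypes was tested directly. The change differed for 442 of 4151 probes (10.6%), being more negative in wild type for 359 (8.65%) and more positive for 83 (2.00%). This count depends on the scaling of the arrays, since with each array centred 259 probes differed, 129 of them more negative and 130 more positive in wild type, of which 212 were among the 442. It also fell to 294 without *tud* male 0 h replicate 2. *26-29kD-proteinase* rose by 1.31 ± 0.22 in wild type against 3.48 ± 0.18 in *tud* progeny, a difference of -2.23 ± 0.26 (adjusted p = 6.8e-05, limma). *Ady43A* rose by 2.28 ± 0.17 against 3.99 ± 0.15, a difference of -1.71 ± 0.21 (adjusted p = 6.8e-05, limma). *PGRP-SB2* fell further in wild type, with -7.12 ± 0.19 against -5.76 ± 0.23. These 3 differences passed the test with arrays centred as well and without any single array. For the largest changes of all, those of *Cpr72Ea* (9.57 in wild type), *Obp56a* (7.92), CG1850 (8.63) and CG7924 (-10.02), no difference between genotypes passed the test, with differences of -0.79, -0.96, -0.01 and -0.19.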

How the data were processed

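RNA of whole *tud* progeny was hybridised with a common reference on spotted oligonucleotide arrays. The deposited values are log2 ratios that the authors made from GenePix scans, with elements marked bad left out, elements kept where most pixels stood above background in at least 1 channel, and a global loess correction in LIMMA within each array. No normalization between arrays is stated and none was added. The table held 15776 elements, of which 32 controls were left out, and all of its columns were mapped to a sample. Missing values were not imputed, so probes differ in the number of arrays behind them, and ratios carry no depth: precision rests on the number of arrays. That replicates came from separate cultures is not stated, so p-values measure the spread between these samples, which may be technical.

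Probes with at least 2 values in each of the 4 groups of sex and hour were fitted with sex and hour (limma 3.58.1, R 4.3.3), and p-values were adjusted over all probes tested by the method of Benjamini and Hochberg, with a threshold of 0.05. The sex by hour and genotype by hour interactions were fitted likewise. The fits of the change in *tud* progeny and of the sex by hour interaction were tried on simulated data, and the other fits were not. Alternatives were the group means of all 60 arrays, a replicate block, centred or quantile-normalized arrays, all 3 values in each group, array weights, an adjusted p of 0.15 and the omission of each array. Pairing was checked by the correlation of same-numbered arrays' deviations from their group means.

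Names were taken from the published lists of genes, which named 2357 probes, 2343 of them with a current RefSeq symbol. Some of those lists are clusters chosen on these arrays. Named are the 10 named probes that rose most and the 10 that fell most among those called with all 12 values and no overlap. Up to 4 called members in each direction of each list are given too. So are all probes with a name of *broad*, *Eig71E*, *Larval serum protein 1*, the drosomycins and 8 single genes (*decapentaplegic*, *Eip93F*, *Delta*, *grim*, *Ice*, *Nedd2-like caspase*, *draper* and *croquemort*). The members and the gene lists were chosen with earlier results of these data known. Heat-shock-protein-70, the probes without a name and the genes that depend on sex were named after their values were seen. Probe sequences were not used here.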

Additional observations from a re-analysis of the deposited data

Results flagged for a closer look

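The change from 0 to 24 h differed between males and females of *tud* progeny for 7 probes by the interaction of sex and hour (limma). The male change minus the female change was 2.642 for RNA on the X 1, -1.768 for CG1342, 4.799 for dusky, 1.264 for CG2016, 1.224 for Pherokine 3, -2.195 for CG12290 and -1.232 for probe DAC028B23, which has no name. In dusky (probe DAC024P14) the 2 male arrays of 0 h gave -2.75 and -2.46 and those of 24 h gave 0.54 and 0.93, while the 3 female values lay between -2.37 and -1.52 at 0 h and between -3.62 and -2.67 at 24 h. In CG2016 (probe DAC010F15) the males lay between 0.53 and 0.83 at 0 h and between 0.36 and 0.64 at 24 h, and the females between 0.72 and 0.98 and between -0.70 and -0.59. Leaving out single arrays ended the call of each of the 7, for 3 of the 12 arrays in RNA on the X 1 and dusky, 4 in CG1342, 10 in CG2016 and DAC028B23, 11 in CG12290 and all 12 in Pherokine 3, with adjusted p up to 0.125.

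Among the genes named, the change differed between wild type and *tud* progeny by the interaction of genotype and hour (limma) for 11. The wild type change minus the *tud* change was -2.227 for 26-29kD-proteinase, -1.713 for Ady43A, -1.314 for PGRP-SB2, -1.09 for ventral veins lacking, -0.7467 for Hairless and -0.7338 for Hepatocyte growth factor regulated tyrosine kinase substrate, and these 6 passed the test with arrays centred and without any single array. It was 0.6459 for Malic enzyme, which passed with arrays centred and lost its call in 4 of 24 omissions of an array, with adjusted p up to 0.0572. It was -1.675 for ebony, -1.007 for the broad probe DAC021G22, -1.082 for PGRP-SC1b and -0.8754 for Eip93F, and none of these 4 passed with arrays centred, with adjusted p of 0.0997, 0.0553, 0.0717 and 0.0978. Of them, ebony lost its call in 18 of 24 omissions, Eip93F in 16 and PGRP-SC1b in 1.

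A stress-induced chaperone with a pair of probes changed more in wild type, with differences of 3.106 for Heat-shock-protein-70Ba (probe DAC018N13) and 3.225 for Heat-shock-protein-70Ab (probe DAC036M05). In wild type the median of Heat-shock-protein-70Ab went from -1.10 (-1.38 to -0.41) at 0 h to 3.25 (0.69 to 4.69) at 24 h, whereas in *tud* progeny it was -0.83 (-1.22 to -0.36) and -0.53 (-1.91 to 2.85). The 24 h values overlapped between the genotypes. The call of Heat-shock-protein-70Ba was lost in 1 of 24 omissions, with an adjusted p of 0.0626. The copies of this gene are nearly identical, so the probes may read the same RNA.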

How the results depend on the processing

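Requiring all 3 values in each group left 2186 probes in *tud* progeny, so counts fell with the number tested. Then 1440 probes changed, 850 upward and 590 downward, 15 depended on sex and 252 on genotype, and 1091 changed in wild type. At an adjusted p under 0.15, 25 depended on sex and 865 on genotype. Centring left 259 that depended on genotype. With values required on all 6 arrays of 1 hour, 58 probes were measured at 0 h only and 3 at 24 h only. Leaving out 1 array gave 2423 to 2596 probes changed (1454 to 1637 upward, 908 to 1010 downward), 0 to 6 that depended on sex, 294 to 611 that depended on genotype, and 1402 to 1739 changed in wild type. The lowest and highest genotype counts came without *tud* male 0 h replicate 2 and wild type male 0 h replicate 3.

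Replicate numbers did not pair the samples, since deviations of same-numbered arrays correlated with r from -0.147 to 0.159 in *tud* progeny and from -0.209 to 0.253 in wild type. With the replicate block 2577 probes changed, 1634 upward and 943 downward, 1 depended on sex, 369 on genotype, and 1546 changed in wild type.

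No change of a named gene reversed. Calls were lost in the fit of all 60 arrays for draper, croquemort, *Hsp23*, *Hsp27*, boule and Ecdysone-dependent gene 78E, whose adjusted p was 0.142, with centring for Phosphoglucose isomerase, Sperm-specific dynein intermediate chain 2 and Myosin light chain 2, and with the block for draper. The cause was not tested. Leaving out single arrays ended calls for draper, croquemort, Syntaxin 13, *Hsp27* and Myosin light chain 2. In the lists, all 3 values left 6 ecdysone-regulated probes that fell and 1 immune probe that rose.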
